A study of Caenorhabditis elegans with 2 samples.

Results

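The genes described here are the nuclear hormone receptor genes of Caenorhabditis elegans, taken as every protein-coding gene whose symbol begins with nhr- in the Ensembl annotation of build WBcel235 (ce11). The rule found 269 genes among 19973 nuclear protein-coding genes. Of these, 167 lay on chromosome V, 33 on chromosome IV, 23 on chromosome I, 23 on chromosome X, 15 on chromosome II and 8 on chromosome III. Receptors with another kind of name, such as daf-12, are not among the 269. Binding of CEH-9, a homeodomain transcription factor, had been profiled by ChIP-seq, the sequencing of DNA recovered with a protein by immunoprecipitation. The material was whole L3 larvae, both sexes together, of strain OP202 (unc-119(ed3) III; wgIs202). The animals carried an integrated transgene for CEH-9 with a GFP-FLAG tag at its C-terminus, on the unc-119 mutant background that both libraries share. The 2 libraries are biological replicates 1 and 3 of a single condition. The antibody, assay and file types name CEH-9, while a free-text field calls both libraries input. They were treated as CEH-9 ChIP, and this conflict was not resolved.

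Nuclear receptors are transcription factors with a zinc-finger DNA-binding domain and a ligand-binding domain, and many respond to small lipophilic molecules such as steroids, fatty acids and bile acids. Nematodes hold an unusually large family of them, most of which descend from a duplicated HNF4-like ancestor. A minority have clear counterparts in insects and vertebrates and act in moulting, developmental timing and cell fate, while several HNF4-related members control fat and energy metabolism. Because every sample was a whole larva, a signal cannot be assigned to a tissue.

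For each gene, the highest signal value and its rank were taken among summits lying between 1000 bp upstream and 200 bp downstream of any annotated transcript start, which is called the promoter window. A summit is the point of strongest signal within a region of a deposited list. The signal value is the authors' peak caller's own score, has no stated unit, and was compared only within a list. The sequences within 100 bp of the pooled summit (201 bp each, WBcel235 reference, plus strand) are shown for 6 receptor genes. They are the 5 with the highest pooled values outside the chromosome from which sequence is not shown, and the member with the highest value in replicate 3. The region of nhr-98 was centred at chrV:455916-456116, in an intron before an internal start, and its last bases run into coding sequence. The region of nhr-252, at chrV:403997-404197, was intergenic. The regions of nhr-48, at chrX:15707602-15707802, and of nhr-52, at chrV:15676695-15676895, were intergenic too. The regions of nhr-41, at chrIV:1388121-1388321, and nhr-1, at chrX:17519541-17519741, lay in introns. Capitals mark TGATAA in nhr-252 and GAGAGA in nhr-48 and nhr-1, on either strand, and the whole of tRNA gene WBGene00023202 (chrIV:1388216-1388287, minus strand) in nhr-41. No searched word was present in nhr-98 or nhr-52.
nhr-98: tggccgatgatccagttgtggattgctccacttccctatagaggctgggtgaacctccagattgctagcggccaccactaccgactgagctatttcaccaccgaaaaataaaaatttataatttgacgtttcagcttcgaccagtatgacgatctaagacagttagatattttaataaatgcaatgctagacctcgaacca
nhr-252: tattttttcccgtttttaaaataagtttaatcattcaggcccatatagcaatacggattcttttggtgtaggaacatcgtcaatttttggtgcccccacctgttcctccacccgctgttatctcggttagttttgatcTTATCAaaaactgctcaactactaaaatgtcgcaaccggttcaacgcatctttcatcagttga
nhr-48: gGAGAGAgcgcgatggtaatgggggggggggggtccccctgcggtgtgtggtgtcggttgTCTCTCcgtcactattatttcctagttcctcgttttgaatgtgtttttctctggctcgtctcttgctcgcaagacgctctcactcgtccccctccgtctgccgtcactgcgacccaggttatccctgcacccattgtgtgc
nhr-41: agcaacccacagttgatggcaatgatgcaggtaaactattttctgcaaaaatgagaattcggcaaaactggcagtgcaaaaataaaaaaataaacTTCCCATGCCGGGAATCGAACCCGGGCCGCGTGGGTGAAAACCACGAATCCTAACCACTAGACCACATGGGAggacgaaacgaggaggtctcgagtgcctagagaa
nhr-1: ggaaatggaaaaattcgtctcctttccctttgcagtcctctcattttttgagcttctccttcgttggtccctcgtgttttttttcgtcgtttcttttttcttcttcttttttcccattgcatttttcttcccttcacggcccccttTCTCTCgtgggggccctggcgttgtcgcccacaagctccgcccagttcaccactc
nhr-52: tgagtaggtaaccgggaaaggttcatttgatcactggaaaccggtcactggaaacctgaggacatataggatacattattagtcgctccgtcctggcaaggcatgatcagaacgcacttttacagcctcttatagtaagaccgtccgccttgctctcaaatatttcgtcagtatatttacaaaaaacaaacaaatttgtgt

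The lists differed in length and in strength. The pooled list held 10489 regions, and each replicate list held 30000, of which 30 in replicate 1 were mitochondrial. The lowest nuclear signal values were 11.8 (pooled), 3.99 (replicate 1) and 4.41 (replicate 3), so values near these stand at the end of their list. The replicate lists include background regions per the deposited descriptions, so a summit in them is not by itself a peak. A q-value under 0.05 was reached by 28 pooled regions, 3021 nuclear replicate 1 regions and 24 replicate 3 regions. Read depth is not given by the deposited lists and is unknown here. The reproducible set, which the authors derived by the irreproducible discovery rate (IDR), held 45 regions.

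As a family, nuclear hormone receptor genes had a CEH-9 summit about as often as coding genes in general. In the pooled list, 42 of 269 receptor genes had a summit in a promoter window (15.6%, exact Clopper-Pearson 95% interval 11.5 to 20.5%), against 15.3% of all coding genes. In replicate 1 the count was 110 (40.9%, interval 35 to 47%), against 39.6% of coding genes. In replicate 3 it was 99 (36.8%, interval 31 to 42.9%), against 35.5% of coding genes. In each list the coding share fell inside the interval of the receptor share. Intervals cover counting error only, and neighbouring genes can share a region. The strength of the signal was alike as well. The median highest signal value was 14.7 for receptor genes and 14.3 for coding genes in the pooled list, 6.32 for receptor and 6.24 for coding genes in replicate 1, and 6.04 for receptor and 6.39 for coding genes in replicate 3. No summit in any of the 3 lists was found for 109 receptor genes (40.5%), against 42% of coding genes.

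Few of these signals had a low q-value or stood in the reproducible set. A replicate 1 summit with a q-value under 0.05 was present at 15 receptor genes (5.58%, interval 3.15 to 9.03%), against 5.21% of coding genes. In replicate 3 there were 0 of 269 such genes (upper bound 1.36%), against 0.03% of coding genes. In the pooled list there were also 0, against 9 of 19973 coding genes. The reproducible set marked 1 receptor gene, nhr-49, against 0.0851% of coding genes, which is 17 genes. Apart from nhr-49, the receptor genes described below therefore rest on regions that the authors' reproducibility threshold did not keep.

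Positions that recur in both libraries were counted next. Receptor genes with replicate 1 and replicate 3 summits within 200 bp of each other in the promoter window numbered 28 (10.4%, interval 7.03 to 14.7%), against 9.01% of coding genes. With a pooled summit also within 200 bp of them, 23 remained (8.55%, interval 5.5 to 12.6%), against 5.8% of coding genes. The coding share lay inside the interval in both counts. These lists share reads, since the pooled list was made from both replicates, and no test was made over genes. A summit in both replicate lists at any distance was present at 50 receptor genes (18.6%), against 17.6% of coding genes. The 50 are 45.5% of receptor genes with a replicate 1 summit and 50.5% of those with a replicate 3 summit. Over coding genes these shares were 44.5% and 49.5%. Over these 50 genes the highest values of the replicates were nearly unrelated in rank (Spearman's rho 0.0892, a description across genes that share the same libraries). The same measure over 3516 coding genes was 0.0824.

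**Figure D1:**
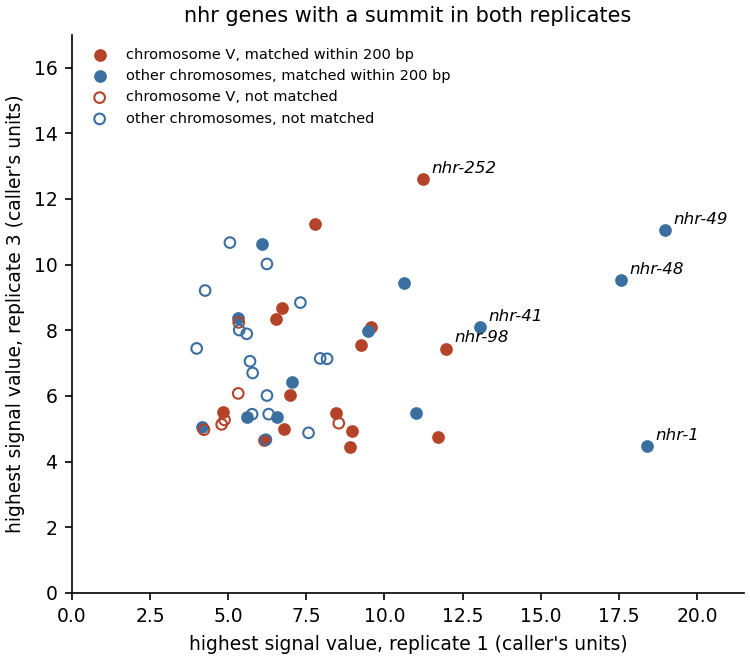
Highest signal value of each receptor gene with a summit in both replicate lists, in replicate 1 (horizontal) and replicate 3 (vertical), 50 genes. Filled points have summits of both replicates within 200 bp of each other. Values in replicates 1 and 3 are 19.0 and 11.1 for nhr-49, 11.2 and 12.6 for nhr-252, and 17.6 and 9.53 for nhr-48. For nhr-1 they are 18.4 and 4.46.

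The receptor gene with the highest pooled value was nhr-49, an HNF4-related receptor that works in fatty acid breakdown and desaturation and in the response to fasting, a role often likened to that of mammalian PPAR alpha. The gene (WBGene00003639, chrI:9869651-9874680, plus strand) has 6 annotated starts, lying 0, 1, 67, 116, 1577 and 3171 bp from the first. Its strongest pooled region, at chrI:9869212-9869527, had a signal value of 31.7, rank 35 of 10489, and a q-value of 0.101. The summit lay 281 bp upstream of the first start, between the upstream gene K10C3.5 and nhr-49, and the same region stood in the reproducible set. In replicate 1 the highest value was 19.0, rank 123, or 103 among nuclear regions, with a q-value of 0.00134 and a summit 349 bp upstream. In replicate 3 the highest value was 11.1, rank 1345, with a q-value of 0.508 and a summit 276 bp upstream. The replicate summits lay 68 bp (replicate 1) and 5 bp (replicate 3) from the pooled one, while the standing of the gene differed between libraries. Among all coding genes ranked by their highest value, nhr-49 was number 12 in the pooled list, number 50 in replicate 1 and number 359 in replicate 3. In replicate 3 its value was at or above that of 95.5% of the list, yet its q-value did not pass 0.05.

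Weaker regions lay inside nhr-49. A second pooled region, with a value of 15.3 and rank 3503, had its summit in an intron, 135 bp after the start at 1577 bp. Replicate 1 had a summit at the same base (value 5.83), and the nearest replicate 3 summit (value 6.93) lay 265 bp after that start, just outside the window. Another pooled region (value 13.6) lay in an exon, 309 bp after the last start and outside every window. The upstream region was at or above 99.7% of the pooled list by value, the intronic region 66.6% and the exonic region 41.1%. The next genes along the chromosome are inx-20, an innexin gene, and nhr-69, another HNF4-related receptor. At nhr-69 there was no summit in a promoter window in any of the 3 lists.

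**Figure D2:**
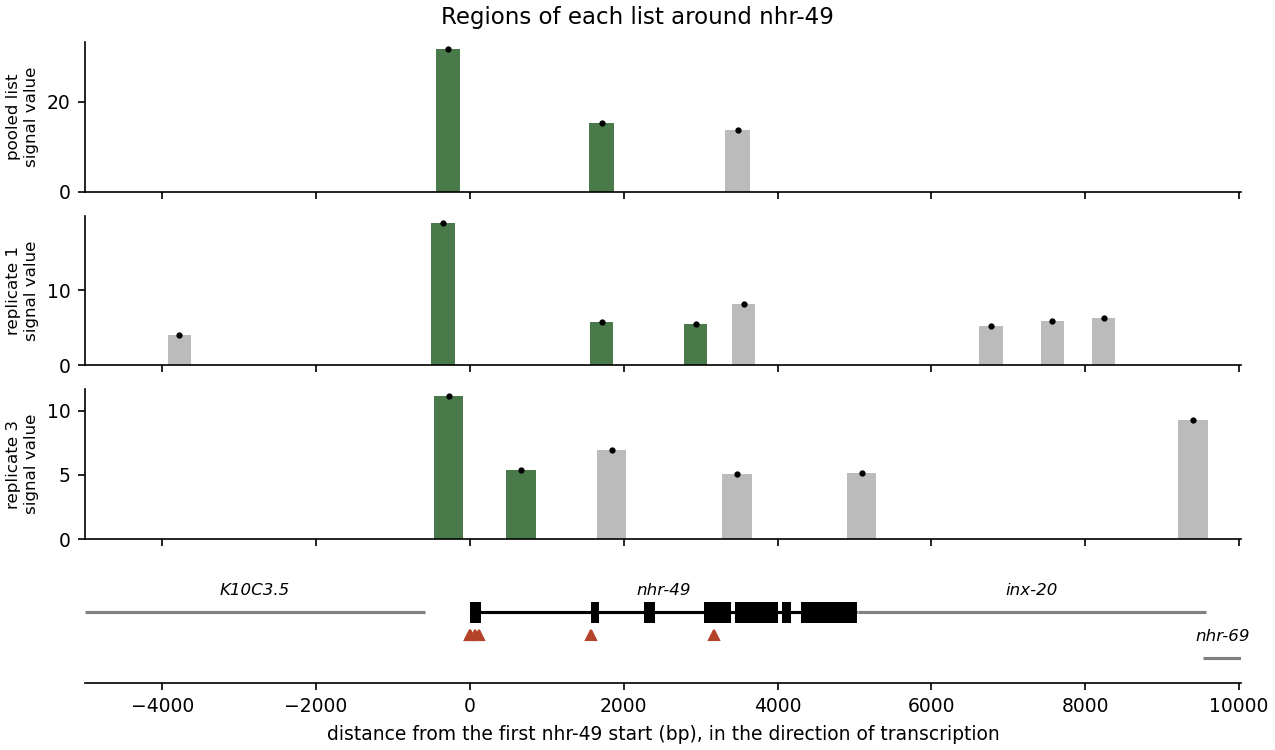
Regions of the pooled list and both replicate lists around nhr-49, drawn to scale by distance from its first start (horizontal, bp) and by signal value (vertical, a separate scale for each list). Green regions have their summit in a promoter window, grey ones do not. Triangles mark annotated starts, black boxes exons of nhr-49 and grey lines neighbouring genes. The region about 281 bp upstream is the highest in each list.

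Genes that act with NHR-49 or are known to be regulated by it form a list of 13. A pooled summit was present at 4 of them, a replicate 1 summit at 2 and a replicate 3 summit at 5, while 5 had none. As shares these were 30.8%, 15.4% and 38.5%, against 15.3%, 39.6% and 35.5% of coding genes, of which 42% had none. The highest was icl-1, which encodes the glyoxylate cycle enzyme isocitrate lyase and malate synthase, with a pooled value of 19.0 (rank 1054), 10.3 in replicate 1 and 6.15 in replicate 3. It alone of the 13 had matched replicate summits. The pooled values of the others were 15.6 at fat-5, a fatty acid desaturase gene, 14.1 at fmo-2, a flavin-containing monooxygenase gene, and 12.9 at hacd-1, a hydroxyacyl-CoA dehydrogenase gene. At hacd-1 replicate 3 gave 13.4 (rank 335) and replicate 1 had no summit. The coactivator gene mdt-15, the acyl-CoA synthetase gene acs-2 and the desaturase gene fat-6 had none in any of the 3 lists. The pooled median over the 4 genes was 14.8, near the 14.3 of all coding genes.

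After nhr-49, the highest pooled values belonged to nhr-98 and nhr-252, both near the left end of chromosome V, and to nhr-48 on chromosome X. At nhr-98 the values were 26.8 in the pooled list (rank 110), 11.96 in replicate 1 (rank 1304) and 7.44 in replicate 3 (rank 8595). At nhr-252 they were 23.8 (rank 247), 11.2 (rank 1780) and 12.6 (rank 542), with the summit 522 bp upstream of its 1 start. This region also lay in a promoter window of srh-62, a chemoreceptor gene, so it cannot be assigned to either gene. At nhr-48, a receptor related to DAF-12 and to the vertebrate vitamin D receptor, the values were 22.1 (rank 401), 17.6 (rank 178) and 9.53 (rank 3114). The 9.53 lay 688 bp upstream of the nearest nhr-48 start and the pooled summit 511 bp upstream. The replicate 3 summit nearest that pooled summit, 47 bp away, had 5.31 (rank 21484). In all 3 genes a summit of each replicate lay within 200 bp of the pooled one. Between the replicate lists, which have the same length, nhr-98 and nhr-48 stood higher in replicate 1 and nhr-252 stood higher in replicate 3.

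The next values belonged to nhr-41, nhr-265 and nhr-1. At nhr-41, the counterpart of the vertebrate TR2 and TR4 orphan receptors, the pooled value was 21.3 (rank 513), with 13.1 in replicate 1 (rank 879) and 8.09 in replicate 3 (rank 6415). The pooled summit of nhr-41 lay 124 bp after an internal start and inside the intronic tRNA gene whose sequence is given above. The replicate 3 value of 8.09 came from another site, 216 bp upstream of the first start. The replicate 3 summit nearest the pooled one, 27 bp away, had 5.93 (rank 17108). Among the 41 pooled regions behind the members' strongest summits, 2 overlapped a tRNA gene (4.88%), those of nhr-41 and nhr-255, against 18 of 2716 (0.663%) for all coding genes. The tRNA genes' part in these values was not tested. At nhr-265 the pooled value was 20.3 (rank 681), in an exon 144 bp after the start. Replicate 1 gave 11.2 there, and the replicate 3 summit, 72 bp away, fell outside the window. At nhr-1 the pooled value was 19.2 (rank 988) and the replicate 1 value 18.4 (rank 147), at the same base. The nearest replicate 3 summit was 1930 bp away, and the highest in any of its windows was 4.46 (rank 29417). The nhr-1 site was thus found in 1 library.

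The remaining members among the 12 highest had pooled values of 18.6 (nhr-34), 18.4 (nhr-31), 17.95 (nhr-52), 17.6 (nhr-251) and 17.3 (nhr-60), with nhr-15 just behind at 17.2. Of these, nhr-31 is known for its control of vacuolar ATPase genes in the excretory cell. It had replicate summits 14 bp and 4 bp from the pooled one, with values of 11.01 in replicate 1 and 5.49 in replicate 3. At nhr-52 replicate 3 gave 15.2 (rank 113), the highest value of any receptor gene in that library, whereas replicate 1 had no summit within 3905 bp of the pooled one. Hence the member that led replicate 3 was missing from replicate 1, the reverse of nhr-1. In replicate 1 the leading members were nhr-49, nhr-1 and nhr-48, and in replicate 3 they were nhr-52, nhr-252 and nhr-15. The region of nhr-15 (7.78 in replicate 1, 11.2 in replicate 3) is shared with phf-10, a PHD finger gene. The 10 strongest with matched summits and a pooled region were nhr-49, nhr-98, nhr-252, nhr-48, nhr-41, nhr-34, nhr-31, nhr-251, nhr-60 and nhr-15.

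**Figure D3:**
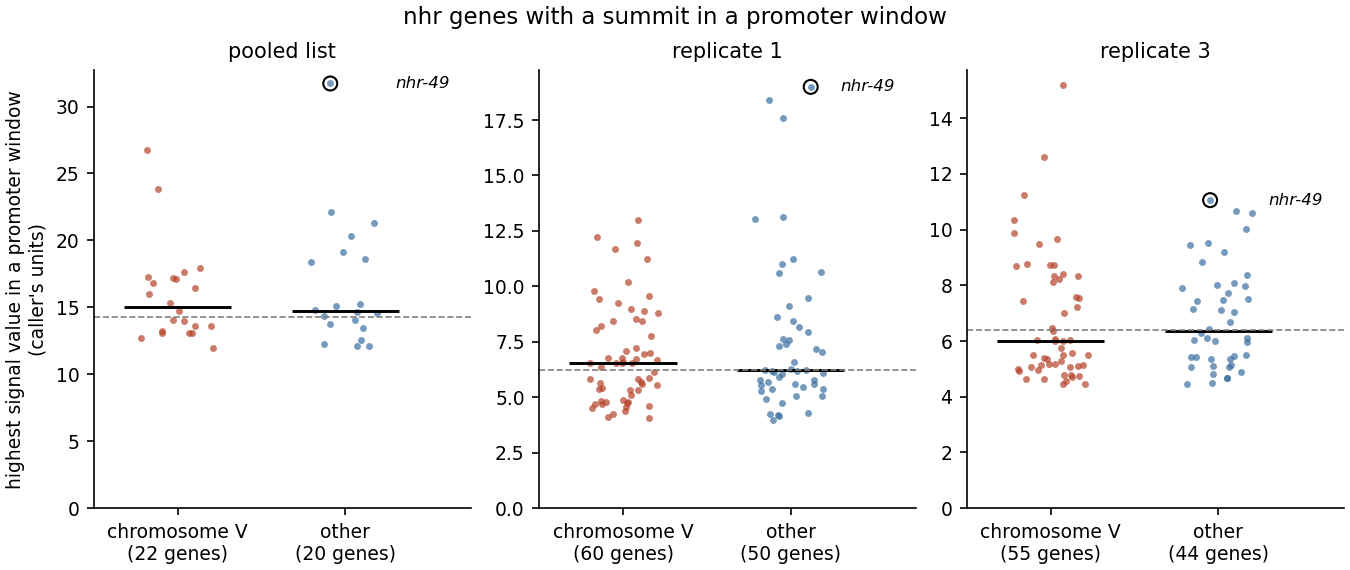
Highest signal value in a promoter window for each receptor gene that has a summit (1 point per gene), in the pooled list and both replicate lists, with genes of chromosome V left of those of other chromosomes. Bars are medians, the dashed line is the median over all coding genes, and nhr-49 is circled. Values are comparable only within a panel, and the 2 groups overlap over most of their range in each.

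The 42 pooled summits took 41 distinct regions, because nhr-94 and nhr-152, a pair of divergent neighbours, share 1. Of the 42, 21 were intergenic, 12 lay in an exon and 9 in an intron. A replicate 1 summit lay within 200 bp of 36 of them and a replicate 3 summit within 200 bp of 31. Both did so for 26, and neither did for 1, nhr-124 (pooled value 15.3), which had no replicate summit in its windows either. These feature and distance counts have no share over coding genes beside them. The pooled list shares reads with both replicates, so nearness to its summits is not read as replication. The summit was upstream of the nearest start for 76.2% of receptor genes, against 78.4% of coding genes. It lay within 200 bp of that start for 20 of 42 (47.6%), against 41.2%. At the edges of the window, nhr-291 was just inside, 978 bp upstream (value 16.8), while nhr-14 was just outside, 211 bp downstream (value 12.7). The nhr-291 summit lay in an exon of nhr-246, a neighbouring receptor gene with no summit in its own windows in any list. Of the 306 highest among the 3065 coding genes with a pooled summit, 6 were receptor genes. Among all 3065, 42 were receptor genes. The difference between these shares was not tested.

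Chromosome V carries the majority of the family, and its members had a summit less often than members elsewhere in all 3 lists. In the pooled list, 22 of 167 receptor genes on chromosome V had a summit (13.2%, interval 8.44 to 19.3%), against 20 of 102 on the other chromosomes (19.6%, interval 12.4 to 28.6%), a difference of -6.43 percentage points. In replicate 1 the shares were 35.9% on chromosome V and 49% elsewhere, a difference of -13.1 points. In replicate 3 they were 32.9% on chromosome V and 43.1% elsewhere, a difference of -10.2 points. The replicate differences had an SD of 2.04 points (n = 2), and the intervals of the 2 groups overlapped in each list. Coding genes in general leaned the same way by less. They had 13.7% on chromosome V and 15.9% elsewhere in the pooled list, 37.8% on V and 40.2% elsewhere in replicate 1, and 33.3% on V and 36.3% elsewhere in replicate 3. Those are differences of -2.15, -2.31 and -2.98 points. Genes are not replicates, so the gap was described and not tested.

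**Figure D4:**
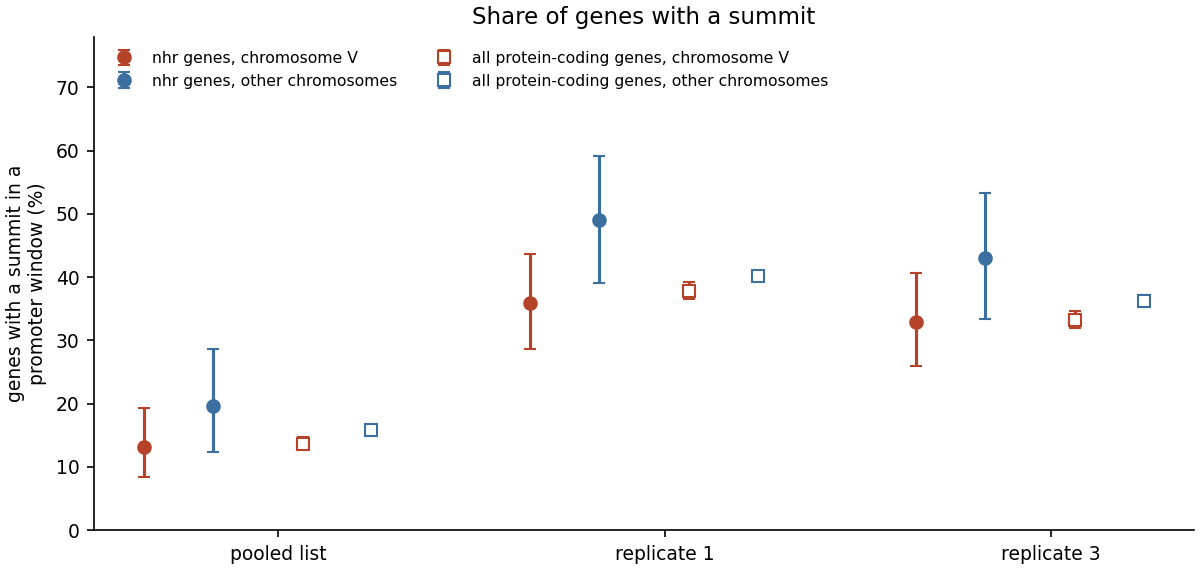
Share of genes with a summit in a promoter window (vertical, percent) in each list, for receptor genes (filled) and all protein-coding genes (open), with chromosome V left of the other chromosomes. Error bars are exact 95% intervals. Receptor genes on chromosome V lie below those elsewhere in each list, with overlapping intervals.

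The gap depended on which other genes stood against chromosome V. Of the 23 members on chromosome X, 8 had a pooled summit (34.8%, interval 16.4 to 57.3%), 17 a replicate 1 summit and 11 a replicate 3 summit. Those replicate counts are 73.9% and 47.8%. Coding genes of chromosome X had 18.4% in the pooled list, 42.6% in replicate 1 and 36.8% in replicate 3. With chromosome X left out, an alternative chosen after seeing the data, the other members had 15.2% in the pooled list, and the difference was -2.02 points, against -1.59 points over coding genes. In the replicates it was then -5.84 and -8.84 points, against -1.76 and -2.87 points over coding genes. The number of starts moved with the gap too. Members with 1 annotated start, whose windows are all of the same length, had pooled summits in 12.4% of cases on chromosome V and 12.9% elsewhere. Their differences were -0.522 points in the pooled list, -0.246 in replicate 1 and -2.44 in replicate 3. Over coding genes with 1 start they were -1.66, -0.981 and -2.09 points in the same lists.

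The gap was wide among members with 2 or more starts. On chromosome V there were 62 such genes, with a summit in 14.5% (pooled), 37.1% (replicate 1) and 35.5% (replicate 3). Elsewhere there were 40, with 30%, 70% and 57.5%. In replicate 1 the intervals did not overlap (25.2 to 50.3% on chromosome V, 53.5 to 83.4% elsewhere), while in the other lists they did. Coding genes of the same kind had 21.4% on chromosome V and 23.3% elsewhere in the pooled list, so the receptor genes lay below them on chromosome V and above them elsewhere. The windows of these receptor genes had a median length of 1508 bp on chromosome V and 2403 bp elsewhere, and the mean number of starts was 2.5 on chromosome V and 3.38 elsewhere. Per 100 kb of window there were 7.63 pooled regions on chromosome V and 14.3 elsewhere. Coding genes of the same kind had 11.7 on chromosome V and 12.4 elsewhere. Of the 40 receptor genes elsewhere, 12 lay on chromosome X, whose members had the higher shares given above. The parts of window length and of chromosome X in the gap were not tested. The split by starts was chosen after seeing the data.

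**Figure D5:**
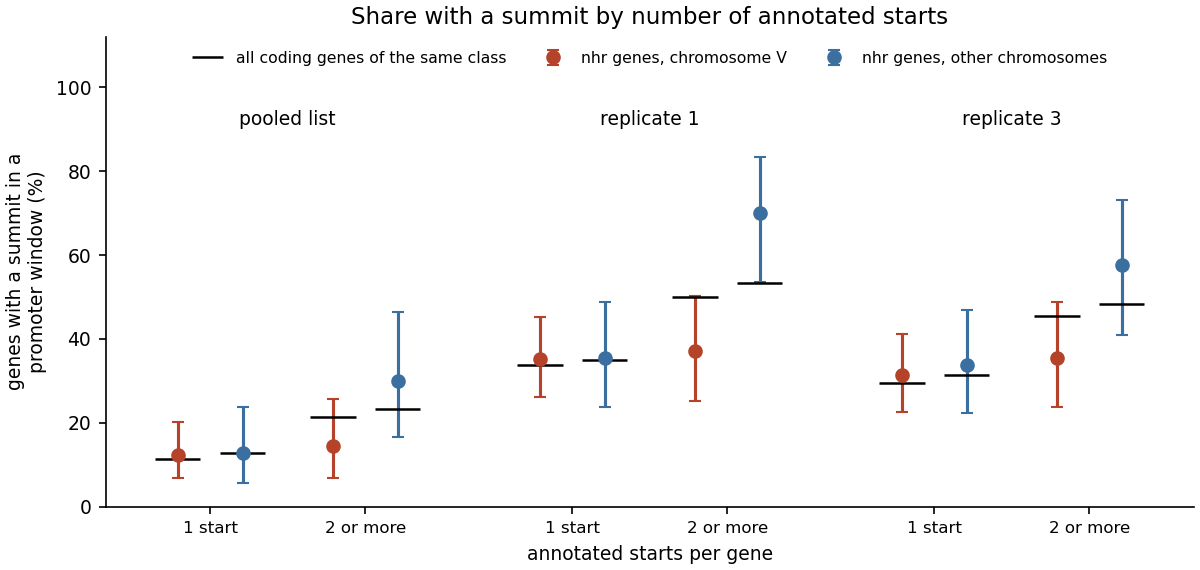
Share of receptor genes with a summit (vertical, percent) by number of annotated starts, list and chromosome class, with chromosome V left of the other chromosomes. Error bars are exact 95% intervals, and black bars give all coding genes of the same class. The groups are level at 1 start and apart at 2 or more.

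Signal strength gave no settled direction between the chromosomes. The median highest value was 15 on chromosome V and 14.7 elsewhere in the pooled list, 6.55 on V and 6.22 elsewhere in replicate 1, and 5.99 on V and 6.35 elsewhere in replicate 3. The sign differed between the replicates, and in the pooled list it also turned under 3 alternatives. Matched replicate and pooled summits were present at 11 of 167 members on chromosome V (6.59%) and 12 of 102 elsewhere (11.8%). Coding genes had 4.89% on chromosome V and 6.1% elsewhere.

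Receptor genes on chromosome V lie in clusters, and this was looked at as well. Another member's start lay within 5000 bp for 103 of 167 on chromosome V and for 23 of 102 elsewhere, with a median distance to the nearest member of 3200 bp on chromosome V and 34456 bp elsewhere. On chromosome V, clustered members had a pooled summit in 13.6% of cases and the 64 that stood apart in 12.5%. In replicate 1 the shares were 33% of clustered and 40.6% of separate members, and in replicate 3 they were 30.1% of clustered and 37.5% of separate members. Coding genes of chromosome V lay between these, at 37.8% in replicate 1 and 33.3% in replicate 3. The difference between clustered and separate members was not tested. With chromosome V cut into 3 equal parts, pooled summits were present at 11 of 78 members in the left arm, 5 of 41 in the centre and 6 of 48 in the right arm. These are 14.1%, 12.2% and 12.5%, against 13.9%, 14% and 13.3% of the coding genes of the same parts. The strongest of the left arm lay close to its end. Between 300000 and 610000 bp, an interval chosen after its values were seen, 5 of 21 members had a pooled summit (nhr-15, nhr-252, nhr-98, nhr-58 and nhr-251). All 5 had matched replicate summits. That is 23.8% of the members there, against 11 of 61 other coding genes (18%).

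Members with clear counterparts outside nematodes form a list of 9. Pooled summits were present at 3 of them, nhr-48, nhr-41 and nhr-25, with a median of 21.3 against 14.3 over all coding genes. That median is the value of nhr-41 alone, whose summit lay inside a tRNA gene. The replicate 3 summit nearest to it had 5.93 (rank 17108). All 3 genes had matched replicate summits. The list had a replicate 1 summit at 5 and a replicate 3 summit at 7. Its shares were 33.3% (pooled), 55.6% (replicate 1) and 77.8% (replicate 3), against 15.3%, 39.6% and 35.5% of coding genes. All except nhr-67 have more than 1 annotated start. Coding genes of that kind had 21.4 to 23.3% (pooled), 50 to 53.3% (replicate 1) and 45.4 to 48.3% (replicate 3). Each range runs from chromosome V to the other chromosomes. With 9 genes the shares of the list were not tested. At nhr-25, the counterpart of Ftz-F1 and SF-1, which acts in moulting and epidermal development, the values were 14.6 in the pooled list, 10.6 in replicate 1 and 9.44 in replicate 3. The ROR counterpart nhr-23, required for moulting, had 6.21 in replicate 1 and 4.66 (rank 27924) in replicate 3 and no pooled summit. The tailless counterpart nhr-67 had 7.71 in replicate 3 alone, and nhr-6, of the NR4A group, had 4.49 (rank 29155) in replicate 3 alone. The Rev-erb counterpart nhr-85 had 4.26 (rank 27192) in replicate 1 and 9.21 in replicate 3. The xenobiotic and sterol receptor gene nhr-8 and the GCNF counterpart nhr-91 had none in any list.

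Receptors of metabolism and detoxification form a list of 13, of which 3 had a pooled summit, 7 a replicate 1 summit, 7 a replicate 3 summit and 5 none. These are 23.1% (pooled) and 53.8% in each replicate, against 15.3%, 39.6% and 35.5% of coding genes, of which 42% had none. All except nhr-10 and nhr-69 have 2 or more starts. Among coding genes of that kind the shares were 21.4 to 23.3% (pooled), 50 to 53.3% (replicate 1) and 45.4 to 48.3% (replicate 3). Besides nhr-49, the members with a pooled summit were nhr-28 and nhr-80. Values at nhr-28 were 14.7 (pooled), 4.15 (replicate 1, rank 28270) and 5.06 (replicate 3, rank 24356). Those at nhr-80 were 14.1, 5.3 and 8.39. The product of nhr-80 controls fatty acid desaturase genes together with NHR-49, and its region is shared with the neighbouring gene H10E21.1. The nhr-80 value of 5.3 in replicate 1 lay 618 bp upstream of the nearest start. The replicate 1 summit nearest the pooled one, 7 bp away, had 5.25. Both nhr-28 and nhr-80 lay near the median of the pooled list, far below nhr-49. At nhr-62, which acts in the lifespan response to dietary restriction, replicate 3 gave 10.7 (rank 1674) and replicate 1 gave 5.06. The vitamin B12 response genes nhr-10 and nhr-68 had no summit in any list, and nhr-114 had 7.59 in replicate 3 alone. The remaining values were 6.2 at nhr-64 in replicate 1, 6.24 and 6.01 at nhr-66 in replicates 1 and 3, and 4.88 and 5.27 at nhr-86. Those of nhr-64 and nhr-66 were near the coding medians of 6.24 (replicate 1) and 6.39 (replicate 3), and those of nhr-86 were below them. At nhr-13 no list had a summit.

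Receptors of development and moulting form a list of 10, which overlaps the conserved list. Pooled summits were present at 3, nhr-25, nhr-60 and nhr-40, replicate 1 summits at 6 and replicate 3 summits at 7, and 2 had none. These are 30%, 60% and 70% of the list, against 15.3%, 39.6% and 35.5% of coding genes, of which 42% had none. All except nhr-2, nhr-60 and nhr-67 have 2 or more starts. Coding genes of that kind had 21.4 to 23.3% (pooled), 50 to 53.3% (replicate 1) and 45.4 to 48.3% (replicate 3). At nhr-60, which acts in embryonic and epidermal development, the pooled value was 17.3, with 8.45 in replicate 1 and 5.49 in replicate 3. The 8.45 lay 829 bp upstream of the start and the pooled summit 313 bp upstream, where replicate 1 had 7.63. At nhr-40, which acts in body wall muscle development, the values were 12.2 (rank 9428), 5.61 (rank 16860) and 5.36 (rank 21085). At nhr-46 replicate 1 alone had a summit (4.2, rank 27776), and at the embryonic gene nhr-2 no list had one. All members of this list except nhr-25 and nhr-60 lay below the pooled median or had no pooled summit. Of 5 nuclear receptor genes named otherwise, daf-12, the receptor for dafachronic acids, had a pooled summit (12.6), with 8.94 in replicate 1 and 6.35 in replicate 3. At odr-7 replicate 3 alone gave 8.05, and fax-1, sex-1 and unc-55 had none.

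Short words were counted within 100 bp of the summit, on both strands, in the 41 regions. The same count was made in the 2716 pooled regions that are strongest at a coding gene and in all 10489 pooled regions. The homeodomain core TAATTA was present in 4 of 41 (9.76%), against 6.96% of the coding-gene regions and 6.57% of all. The related TAATTG was present in 6 (14.6%), against 13.1% and 12.8%. The nuclear receptor half-site AGGTCA was present in 5 (12.2%), against 6.11% of the coding-gene regions and 5.53% of all. The GA repeat GAGAGA was present in 10 (24.4%), against 18.4% and 15.9%, and the GATA-type word TGATAA in 6 (14.6%), against 16.5% and 15.1%. With 41 regions these counts are small, no test was made, and no word is called particular to the receptor genes. The median GC content was 38.8%, against 39.3% of the coding-gene regions and 39.8% of all. These are matches of letters and not binding sites.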

How the data were processed

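CEH-9 ChIP-seq of whole L3 larvae was analysed in 2 samples (biological replicates 1 and 3, 1 group). The authors called regions on each replicate and on the pooled alignments, both replicates against the same control alignment, per the deposited file descriptions. The aligner, the peak caller with its scaling, and the IDR cut-off: each was not given in the sources used here. The authors' deposited lists give a signal score per region (no stated unit, used only within a list), a −log10 of the q-value and the summit offset. The p-value column held a placeholder, and read depth is unknown, so nothing was scaled by depth. Only the ce11 lists were used, with Ensembl release 115 annotation of WBcel235. Sequences came from the RefSeq assembly of the same build. Coordinates are 1-based.

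Summits were assigned to promoter windows (1000 bp upstream to 200 bp downstream of any start) with Python 3.11.15, pandas 2.3.3, numpy 2.4.6 and scipy 1.17.1, and the assignment was tested on simulated data. The highest score per gene was kept. Shares carry exact (Clopper-Pearson) 95% intervals. With 1 group and no independent genes, no test was made. Members and gene lists were chosen with earlier results of these data known. Named genes were nhr-49, the 12 highest pooled members, up to 10 with matched replicate and pooled summits, the 3 highest in each replicate and the role lists. Others named (nhr-58, nhr-291, nhr-246, nhr-14, nhr-124, nhr-255, nhr-94 and nhr-152) were picked once their values had been seen. The alternatives varied the window, the starts used, overlap in place of summit, the strength of regions, the matching distance and the replicate used.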

Additional observations from a re-analysis of the deposited data

How the results depend on the processing

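The alternatives to each of the 7 summary values mainly changed counts. With a window of 500 bp upstream to 100 bp downstream, receptor genes with a summit numbered 22 (pooled), 73 (replicate 1) and 61 (replicate 3), and 15 had matched replicate summits. With 2000 bp upstream, the pooled count was 66 and the matched count 49. Pooled regions at or above the median score left 25 genes, and those with q under 0.05 left 0. Replicate regions with q under 0.05 left 15 (replicate 1) and 0 (replicate 3). As many strongest regions as the pooled list holds left 44 and 39, with 7 matched. A replicate list in place of the pooled one gave 99 to 110 genes, because these lists are longer.

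The difference in share between chromosome V and the other chromosomes was -2.62 and -3.12 points with the shorter and longer window and -3.33 with outermost starts. It was 0 at q under 0.05 (no gene left), -13.1 to -10.2 with 1 replicate, -0.522 for genes with 1 start and -2.02 without chromosome X. The last 2 settings were added after seeing the data. It stayed negative in 9 of 10 alternatives, the exception being the 0. The difference in median score, 0.283, was 0.805 with the shorter window, -0.327 with the longer one, -0.0861 with outermost starts and -1.19 for regions at or above the median, and -0.357 to 0.327 with 1 replicate. The cause of these turns was not tested. The nhr-49 score was 31.7 under each window, start and overlap setting, and 11.1 to 19.0 in single replicates, whose scores are on their own scale. No median difference and no nhr-49 score could be had at q under 0.05.

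No paired analysis was possible because there was 1 group. Without read depth, absence of a summit does not show absence of binding, and 2 libraries limit every statement on replication.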
